A study of Homo sapiens with 15 samples.

Results

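The condensate pellets compared here came from cytosolic extracts (CEs) of U2OS, a human osteosarcoma cell line, that had been incubated for 2 h at 37 °C with 2 µg/ml silvestrol or without addition (mock). The comparison took 6 of the 15 libraries of the series, mock replicates 1 to 3 and silvestrol replicates 1 to 3, chosen by their labels and paired by replicate number. The labels call the line wild type, while the study's text describes the pelleted material as YFP-G3BP1 condensates. The other pellets, which entered only where named, received 250 nM dsRNA or 1% PEG, and the input was extract that had not been pelleted. The mock reactions were left untreated, and none of the 15 libraries is labelled as a solvent control, so drug and solvent cannot be told apart. The amount of RNA in a pellet was not measured, so each value is a share of its own library, and a change in how much RNA was pelleted would leave no trace in these values.

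Silvestrol is a rocaglate, a plant natural product that acts on eIF4A. This DEAD-box helicase of the cap-binding complex eIF4F unwinds the 5′ leader of an mRNA so that the small ribosomal subunit can load and scan. Rocaglates clamp eIF4A onto runs of purines, which blocks scanning and also takes eIF4A away from other mRNAs. mRNAs stalled in this way leave polysomes and, through G3BP proteins, enter stress granules, condensates known to favour long and poorly translated mRNAs. The question put to the data was how far inhibition of eIF4A shifted which mRNAs were pelleted.

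Of 57500 genes in the files, 16612 were tested, namely those that reached 10 counts in 2 or more replicates of every one of the 5 conditions. These held between 99.67% and 99.70% of the counts of each of the 6 libraries, whose totals ranged from 32477292 to 45319526 counts. Of 13 mesenchymal and osteosarcoma markers, 9 were at 1 CPM (counts of a gene relative to all counts of its library) or more in all 6 pellets, including RUNX2, SPARC, VIM and COL1A1, whereas 4 (COL1A2, NT5E, TWIST1 and BGLAP) stayed under 1 CPM in all 6. Their summed level was 2730 to 3130 CPM in mock and 2870 to 3390 CPM in silvestrol. Of 12 epithelial and hepatocyte markers, 4 reached 1 CPM (EPCAM, KRT8, KRT18 and SERPINA1), with sums of 481 to 586 CPM in mock and 456 to 591 CPM in silvestrol, and APOB and FGB were at 0. None of 8 blood markers reached 1 CPM, and CD3E was at 0. Replicate 1 of both treatments stood apart from replicates 2 and 3. The standard deviation across the 11125 genes whose log2 CPM averaged 3 or more, of the log2 ratio between mock replicates 1 and 2 was 0.413, that between mock replicates 1 and 3 was 0.417, and that between mock replicates 2 and 3 was 0.141. Each replicate number was therefore kept as a block in the model, and the median of every gene list below is also given by pair.

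Silvestrol and mock pellets held nearly the same mRNAs in the same proportions. Over those 11125 genes, the standard deviation of the log2 ratio of silvestrol to mock was 0.161 within pair 1, 0.109 within pair 2 and 0.110 within pair 3. The change between treatments was thus narrower in pairs 2 and 3 than the difference between the closest pair of mock replicates. In edgeR's quasi-likelihood test with the replicate block, 2 genes were higher in silvestrol pellets at an adjusted p (Benjamini-Hochberg) under 0.05, 0.012% of those tested, and 0 genes were lower, 0%. At an unadjusted p under 0.05, 578 genes were higher (3.48%) and 500 lower (3.01%), where 831 of 16612 in all would pass by chance. The log2 fold changes (silvestrol over mock) of 95% of these 11125 genes lay between -0.16 and 0.16. DESeq2 with the same block also called 2 genes, the same genes. Without the block, neither edgeR nor DESeq2 called a gene, with 35 and 25 genes at an unadjusted p under 0.05.

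**Figure D1:**
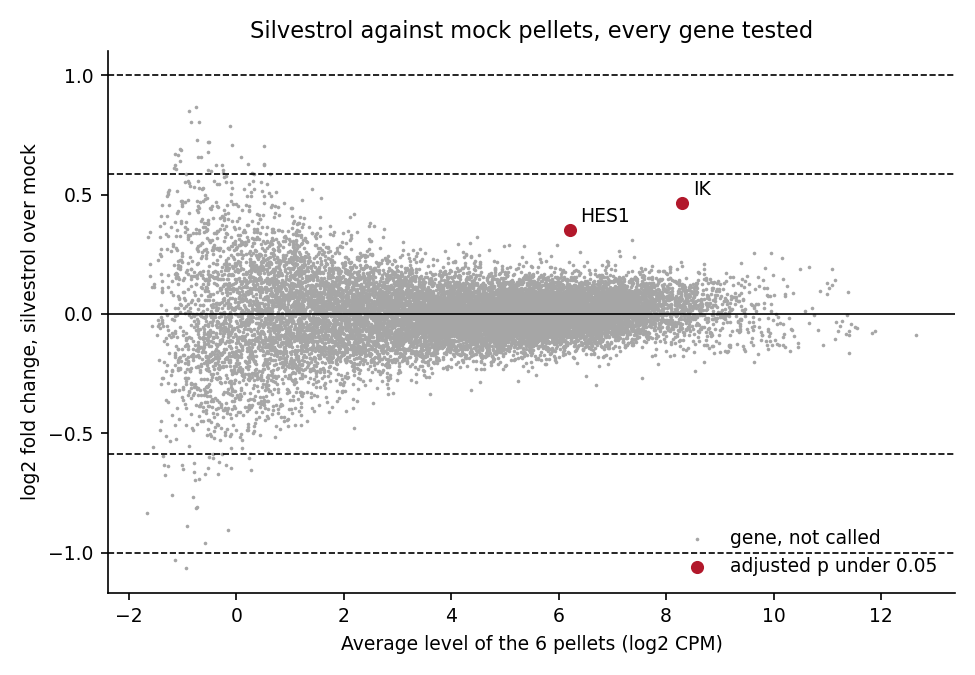
Log2 fold change of silvestrol over mock pellets against the average level of the 6 libraries (log2 CPM) for all 16612 genes tested, with dashed lines at 1.5-fold and 2-fold. IK and HES1, at 0.46 and 0.35, are the called genes, and above a log2 CPM of 3 no estimate reaches the 1.5-fold lines.

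The 2 called genes were IK and HES1. IK encodes a splicing factor of the spliceosome. Its gene lies on chromosome 5 at 140647058 to 140662479 on the plus strand (GRCh38, as the files give it). HES1 encodes a transcriptional repressor and direct target of Notch signalling whose mRNA is short-lived. It lies on chromosome 3 at 194136145 to 194138732 on the plus strand. Because rocaglate clamping is known to prefer purines near the 5′ end, the first 30 transcribed bases (RefSeq, GRCh38.p14) are printed below for both, for TBCC and B2M from the genes that came next, and for RPS13 as an example of a 5′ terminal oligopyrimidine (TOP) mRNA, with the first of the longest runs of A and G in capitals. TBCC was picked after its sequence and value had been seen.
IK, chr5:140647829-140647858, plus strand: gcactgtGGGAAAGAGcttgtcgctgcggt
HES1, chr3:194136148-194136177, plus strand: acacAGGAtccggagctggtgctgataaca
TBCC, chr6:42746074-42746103, minus strand: aagacAAGAGAGAGGAAGcttgaagccaat
B2M, chr15:44711517-44711546, plus strand: attcctGAAGctgacagcattcgggccgag
RPS13, chr11:17077638-17077667, minus strand: cctttcgttgcctGAtcgccgccatcatgg

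IK was measured at 214, 293 and 239 CPM in mock replicates 1, 2 and 3 and at 306, 375 and 345 CPM in silvestrol replicates 1, 2 and 3. Every silvestrol pellet was above every mock pellet, and the mean rose from 249 ± 40.5 to 342 ± 34.5 CPM (SD, n = 3 each). The log2 fold change was 0.46 ± 0.066 (SE), a 1.38-fold rise with a 95% interval of 1.26-fold to 1.52-fold (edgeR, adjusted p = 0.0056). The log2 ratios of the 3 pairs were 0.52, 0.36 and 0.52. NDUFA2, a respiratory chain subunit gene that overlaps the start of IK on the other strand, was at -0.07 ± 0.064 and did not pass the test (edgeR, adjusted p = 0.859). The strand setting of the counting is not given in the sources used here.

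HES1 was measured at 61.2, 61.2 and 59.5 CPM in mock replicates 1, 2 and 3 and at 78.8, 76.4 and 76.7 CPM in silvestrol replicates 1, 2 and 3. The groups did not overlap, and the means were 60.6 ± 1.00 and 77.3 ± 1.34 CPM (SD, n = 3 each). The log2 fold change was 0.35 ± 0.056 (SE), or 1.27-fold with a 95% interval of 1.18-fold to 1.38-fold (edgeR, adjusted p = 0.0202). Its pair ratios, 0.37, 0.32 and 0.36, differed by less than those of IK. Groups did not overlap, with silvestrol higher, for 268 genes (1.61% of those tested), and with silvestrol lower for 320 (1.93%), and an exact permutation test of 3 against 3 libraries cannot give a two-sided p below 0.1.

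Without the replicate block, edgeR gave an adjusted p of 1.0 for both genes, with log2 fold changes of 0.46 ± 0.153 for IK and 0.35 ± 0.078 for HES1. Both genes also passed the threshold when pair 1 was left out, with adjusted p of 9.05e-06 for IK and 0.000136 for HES1 (edgeR). The same held when pair 3 was left out, with 5.99e-05 and 0.000951. Without pair 2 the adjusted p were 0.201 for IK and 0.567 for HES1 (edgeR). The estimates stayed between 0.44 and 0.52 for IK and between 0.34 and 0.36 for HES1 across those fits. A fit on 2 pairs holds little of each gene's own spread, so its error rests mostly on spread pooled over genes. Without pair 1 the adjusted p of IK fell although its SE rose from 0.066 to 0.072. The adjusted p of fits on 2 pairs, here and below, are thus not comparable with those of the main fit.

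In the other groups, IK was at 258 ± 55.9 CPM in dsRNA pellets, 338 ± 29.6 CPM in PEG pellets and 205 ± 43.4 CPM in input (SD, n = 3 each), so that its level in silvestrol was near that in PEG. HES1 was at 64.8 ± 5.46 CPM in dsRNA pellets, 207 ± 25.6 CPM in PEG pellets and 87.9 ± 8.79 CPM in input (SD, n = 3 each). HES1 was thus lower in silvestrol pellets than in every input and PEG library, while exceeding every mock and dsRNA library. Against mock, dsRNA gave log2 fold changes of 0.04 ± 0.062 for IK (edgeR, adjusted p = 0.833) and 0.09 ± 0.066 for HES1 (adjusted p = 0.596). Against silvestrol, dsRNA pellets were lower in IK by -0.42 (edgeR, adjusted p = 1.05e-05) and in HES1 by -0.25 (adjusted p = 0.00484). These comparisons share the silvestrol or the mock libraries with the main one and are given side by side only.

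**Figure D2:**
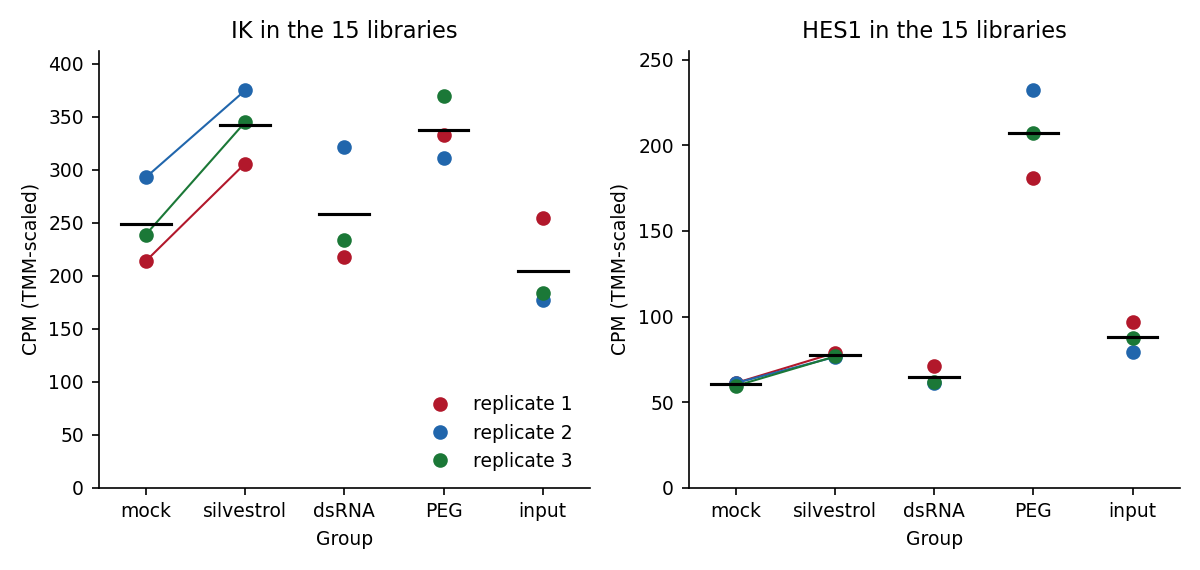
Levels of IK and HES1 in CPM (axis from 0) in the 15 libraries, coloured by replicate number, with black bars for group means and lines joining the mock and silvestrol library of a pair. All 3 lines rise for both genes, and the HES1 values of the mock pellets lie within 59.5 to 61.2 CPM.

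The test for dsRNA gives a scale for these counts. With the same filter, block and number of libraries, 466 genes (2.81%) differed between dsRNA and mock pellets, 25 higher and 441 lower in dsRNA. Between dsRNA and silvestrol pellets 453 genes (2.73%) differed, 39 higher and 414 lower in dsRNA. G3BP1, which encodes the scaffold protein of stress granules, showed the contrast. It was measured at 287, 287 and 255 CPM in mock and 268, 275 and 260 CPM in silvestrol replicates 1, 2 and 3, with overlapping groups and a log2 fold change of -0.05 ± 0.064 (edgeR, adjusted p = 0.913). With dsRNA the log2 fold change of G3BP1 was -0.42 against mock (edgeR, adjusted p = 5.49e-06) and -0.37 against silvestrol (adjusted p = 1.21e-05).

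The next genes by p did not pass the threshold and are given as values. Among the 10 genes with the smallest p on the higher side at that level, IK, HES1, BIN3, CLP1, LYAR, SHANK1, CHMP1B and TBCC each had a positive ratio in all 3 pairs, which 13.9% of all genes had. The p came from the paired fit, which favours genes that agree between pairs, so this agreement is not separate support. LYAR, a nucleolar protein, was at 36.7, 37.4 and 28.6 CPM in mock and at 41.7, 50.5 and 33.7 CPM in silvestrol replicates 1, 2 and 3, higher in each pair although the groups overlapped (log2 fold change 0.28 ± 0.062, edgeR, adjusted p = 0.303). CLP1, a kinase of RNA 3′ end processing, behaved alike, at 24.5, 16.9 and 14.4 CPM in mock and 29, 20.6 and 19.7 CPM in silvestrol (0.32 ± 0.068, adjusted p = 0.285).

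TBCC, a tubulin-folding cofactor, was at 17.4, 17.0 and 16.4 CPM in mock and 20.3, 20.7 and 21.4 CPM in silvestrol replicates 1, 2 and 3, with no overlap (log2 fold change 0.30 ± 0.069, edgeR, adjusted p = 0.346). BIN3, a BAR-domain protein, had a log2 fold change of 0.29 ± 0.060 (adjusted p = 0.285), SHANK1, a synaptic scaffold, 0.26 ± 0.059 and CHMP1B, an ESCRT-III subunit, 0.24 ± 0.056 (both adjusted p = 0.346). BIN3, CHMP1B, LYAR and SHANK1 passed the threshold without pair 1 and without pair 3, whereas without pair 2 each had an adjusted p of 0.999 (edgeR).

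On the lower side the genes with the smallest p were SREK1IP1, B2M, PFDN4, MFSD1, UBE2V2, RPL41P1, COX14, CEBPZ, FABP5 and RPS13, each lower in all 3 pairs, as were 13.9% of all genes. Here too the choice by p favours such agreement. SREK1IP1, which encodes a partner of a splicing regulator, was at 17.9, 24.9 and 21.6 CPM in mock and 14.7, 20.2 and 16.7 CPM in silvestrol replicates 1, 2 and 3 (log2 fold change -0.32 ± 0.068, edgeR, adjusted p = 0.285). Without pairs 1, 2 and 3 in turn its adjusted p was 0.0159, 0.999 and 0.0446 (edgeR). B2M, the light chain of MHC class I, was at 139, 213 and 218 CPM in mock and 112, 180 and 185 CPM in silvestrol (-0.27 ± 0.060, adjusted p = 0.346). For both genes silvestrol was lower in each pair, the groups overlapped, and replicate 1 was lowest in both treatments. PFDN4, a prefoldin subunit, was at 38.5, 40.0 and 37.5 CPM in mock and 27.6, 36.3 and 32.1 CPM in silvestrol, with no overlap (-0.28 ± 0.066, adjusted p = 0.363). The remaining 7, at an adjusted p of 0.727 each, had log2 fold changes from -0.29 to -0.21. They include RPL41P1, a processed pseudogene whose reads cannot be told apart from those of its parent ribosomal protein mRNA with certainty.

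The same data bound the change of single genes. A 95% interval was computed from the fit for each gene, and the change was called bounded where the whole interval lay inside a given fold in both directions. Of the 11125 genes whose log2 CPM averaged 3 or more, the interval lay inside 1.5-fold for 11123 (99.98%) and inside 2-fold for all 11125. The 2 exceptions at 1.5-fold were IK and RN7SL2, a signal recognition particle RNA. For a 1.2-fold bound, added after the data were seen, the figure was 9546 genes (85.81%), and it was 4966 (44.64%) without pair 2. Over all 16612 genes, 14778 (88.96%) were inside 1.5-fold and 16375 (98.57%) inside 2-fold.

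The bound followed the level of the gene. In the lowest of 5 equal groups of genes by level (median average log2 CPM 0.50) the interval reached 1.36-fold to either side of the estimate in the median, and 46.1% of genes were inside 1.5-fold. In the next group the reach was 1.17-fold and 98.77% were inside, and in the upper 3 groups it was 1.11-fold, 1.09-fold and 1.09-fold. The intervals of many mRNAs at the bottom of the range therefore did not exclude a change of 1.5-fold, and 2 genes there had an estimate past 2-fold without passing the test. Without the block, where the difference between replicate 1 and the others enters the error, 87.1% of the 11125 genes were inside 1.5-fold and 98.46% inside 2-fold, but 12.14% were inside 1.2-fold.

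**Figure D3:**
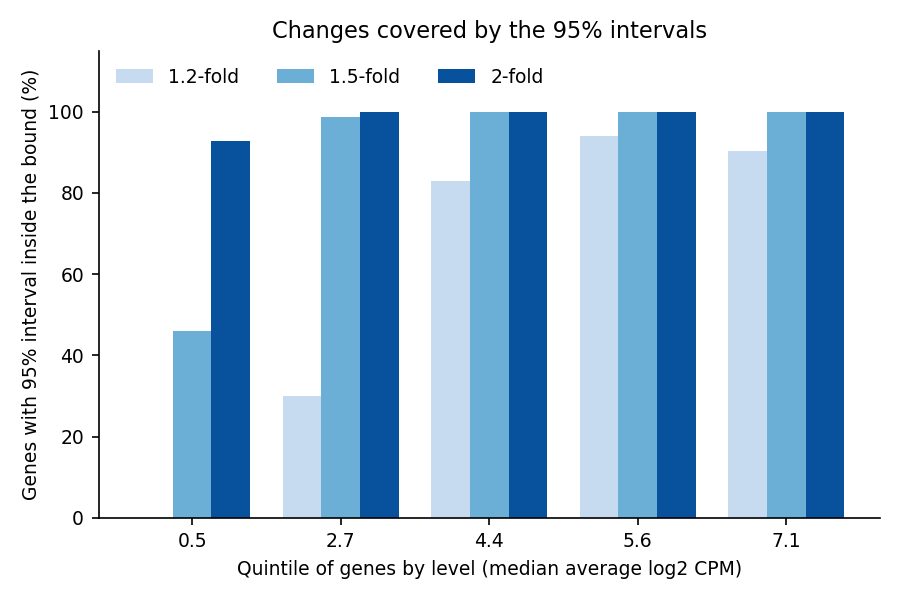
Share of genes (%) whose 95% interval for the change between silvestrol and mock lies inside 1.2-fold, 1.5-fold and 2-fold, in 5 equal groups of genes by average level (axis marks: median average log2 CPM of each group). The lowest group reaches 46.1% at 1.5-fold and the next 98.77%.

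The target of silvestrol and its partners showed no called change. All 18 genes listed for eIF4F and its regulators were tested and 0 passed; 5 had estimates above 0 and 13 below, with a median log2 fold change of -0.03 against 0.001 for all genes. EIF4A2, the paralogous helicase, was at 529, 670 and 625 CPM in mock and 524, 652 and 609 CPM in silvestrol replicates 1, 2 and 3 (log2 fold change -0.03, 95% interval -0.18 to 0.11). EIF4A1, which encodes the main cytosolic helicase, was at 18.3, 20.8 and 17.8 CPM in mock and 17.7, 18.1 and 18.6 CPM in silvestrol (-0.06, interval -0.21 to 0.08). Its gene shares its span on the same strand with SENP3-EIF4A1 and with 3 small nucleolar RNA genes, so that its count depends on how shared reads were assigned. EIF4G1, the scaffold of eIF4F, had the highest estimate of the list at 0.09 ± 0.082, and PDCD4, a protein that sequesters eIF4A, the lowest at -0.14 ± 0.059 (edgeR, adjusted p = 0.866 and 0.754). All 18 intervals lay inside 1.5-fold. The list medians were -0.10, -0.02 and 0.03 in pairs 1, 2 and 3.

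mRNAs often cited as dependent on eIF4A for their translation, among them those for growth and survival proteins, also kept their share of the pellet within narrow limits. All 28 were tested and 0 passed. At an unadjusted p under 0.05, 2 were higher (7.14%) and 0 lower, against 3.48% and 3.01% of all genes. The medians were -0.01, 0.01 and -0.01 in pairs 1, 2 and 3, and all 28 intervals lay inside 1.5-fold. MYC, the proto-oncogene transcription factor, was at 95.4, 139 and 147 CPM in mock and 100, 145 and 135 CPM in silvestrol replicates 1, 2 and 3, with a 95% interval of -0.13 to 0.13 on the log2 scale. CCND1, cyclin D1, was at 0.02 ± 0.067, and MCL1, a short-lived survival protein, at 0.03 ± 0.061. NOTCH1, the receptor upstream of HES1, had the highest estimate, at 98.7, 100 and 116 CPM in mock and 126, 118 and 118 CPM in silvestrol (0.20 ± 0.064, edgeR, adjusted p = 0.727). CDK6, a G1 cyclin-dependent kinase, had the lowest, at 167, 163 and 171 CPM in mock and 156, 152 and 158 CPM in silvestrol, a difference of -0.11 ± 0.059, with silvestrol lower in each pair and no overlap (adjusted p = 0.776).

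Stress-related groups behaved in the same way. Of 44 tested mRNAs of immediate early genes and short-lived regulators, HES1 alone passed; the lowest estimate was that of SNAI2 (-0.32 ± 0.131, edgeR, adjusted p = 0.73), and the list median was 0.03. Of 32 tested genes of the integrated stress response, 0 passed, with estimates from -0.09 for EIF2AK2, the dsRNA-activated kinase PKR, to 0.14 for CEBPB and all intervals inside 1.5-fold. ATF4, the response's main transcription factor, was at -0.07 ± 0.071 (edgeR, adjusted p = 0.882). Of 42 tested genes for stress granule core proteins 0 passed, from STAU2 at -0.12 to PRRC2A at 0.15, with CAPRIN1 at -0.05 ± 0.062 and UBAP2L at 0.02 ± 0.061, both partners of G3BP1. Of 30 P-body and decay factor genes 0 passed, with a median of -0.02. In pairs 1, 2 and 3 the medians were 0.06, 0.05 and -0.03 for immediate early genes and short-lived regulators. They were -0.02, -0.03 and 0.01 for the integrated stress response and -0.05, -0.01 and 0.03 for stress granule core proteins. Those of P-body and decay factors were 0.005, -0.01 and -0.04.

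Shifts of whole gene groups were small and differed between pairs. Among the lists with over 50 genes, those of mRNAs for ribosomes and the respiratory chain had lower medians than the others, zinc finger genes and solute carriers. For 87 tested cytosolic ribosomal protein mRNAs the median log2 fold change was -0.13, with 85 estimates below 0; 19 (21.8%) were lower and 0 higher at an unadjusted p under 0.05, against 3.01% and 3.48% of all genes, and 0 passed the adjusted threshold. By pair their medians were -0.31, -0.11 and 0.04 in pairs 1, 2 and 3. Without pair 1 the median was -0.03. RPS13, a component of the small subunit, was at 304, 423 and 403 CPM in mock and 237, 364 and 365 CPM in silvestrol replicates 1, 2 and 3 (-0.24 ± 0.068, edgeR, adjusted p = 0.727), lower in each pair.

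Nuclear-encoded respiratory chain subunits had a median of -0.11, and their pair medians were -0.23, -0.09 and 0.04. Of these, 28 of 90 (31.1%, against 3.01% of all genes) were lower at an unadjusted p under 0.05 and 0 passed the adjusted threshold. Mitochondrial ribosomal proteins had a median of -0.08, with 11 of 78 (14.1%) lower by that measure, and pair medians of -0.19, -0.07 and 0.04. TOP mRNAs of translation factors had a median of -0.08 over 25 genes and pair medians of -0.21, -0.08 and 0.03. In each of these lists pair 3 had the opposite sign to pairs 1 and 2.

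Mitochondrially encoded mRNAs, which are made and translated inside the organelle by a separate machinery, were on the other side. All 13 had estimates above 0, as had 8389 of the 16612 genes tested, with a median of 0.13. At an unadjusted p under 0.05, 3 of the 13 were higher (23.1%, against 3.48% of all genes), while 0 of the 13 passed the adjusted threshold. Their pair medians were 0.30, 0.09 and -0.06, again with pair 3 opposite, and the median without pair 1 was 0.02. MT-ND6, a complex I subunit, was at 60.4, 96.2 and 82.3 CPM in mock and 77.9, 118 and 81.8 CPM in silvestrol replicates 1, 2 and 3 (0.22 ± 0.066, edgeR, adjusted p = 0.727), with pair ratios of 0.37, 0.30 and -0.02. MT-ATP6, an ATP synthase subunit, was at 1480, 1370 and 1350 CPM in mock and 1760, 1640 and 1430 CPM in silvestrol (0.20 ± 0.084, adjusted p = 0.749), higher in each pair. MT-ND3 was also higher in each pair (0.13 ± 0.060, adjusted p = 0.76).

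Long and short transcripts that the study named as examples followed the same order. The study named them beside these samples, so they are not independent evidence. The 8 long ones had a median of 0.08 and pair medians of 0.23, 0.03 and -0.03, with BCL9L highest at 0.19 ± 0.069 and AHNAK2 at 0.16 ± 0.068 (edgeR, adjusted p = 0.727 and 0.752). The 4 short ones had a median of -0.14 and pair medians of -0.37, -0.08 and 0.05. RPL31 was at 504, 760 and 724 CPM in mock and at 388, 704 and 766 CPM in silvestrol replicates 1, 2 and 3, which shows the change of sign in pair 3. RPS29 had the lowest estimate of the 4 (-0.15 ± 0.071, adjusted p = 0.76), and its span holds RN7SL1, an abundant non-coding RNA gene.

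The remaining lists stayed nearer to 0. Their medians were 0.05 for extracellular matrix and integrin mRNAs (pairs 0.21, 0.01 and -0.06) and -0.03 for proteasome and CCT chaperonin subunits (pairs -0.17, -0.02 and 0.09). They were -0.02 for glycolytic enzymes (pairs -0.07, -0.04 and 0.09), -0.02 for heat shock proteins (pairs -0.09, -0.01 and 0.055) and -0.02 for actin and tubulin (pairs -0.12, -0.02 and 0.12). For 427 zinc finger genes of the ZNF family the median was 0.01 (pairs 0.06, 0.005 and -0.025), and for 249 solute carriers 0.02 (pairs 0.04, 0.02 and -0.02). Small nucleolar RNA host genes had a median of -0.06, and their pair medians were -0.17, -0.01 and -0.03. Of these, 4 of 26 were lower (15.4%) and 0 higher at an unadjusted p under 0.05, against 3.01% and 3.48% of all genes. A chosen list of 24 nuclear and cytoplasmic long non-coding RNAs had a median of -0.06 over the 18 tested, with pair medians of -0.14, -0.02 and -0.03. By the same measure 3 of the 18 were lower (16.7%) and 0 higher, against the same shares of all genes. The list does not stand for long non-coding RNAs in general, and 0 genes of either list passed the adjusted threshold. In both of these non-coding groups no pair median was above 0.

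**Figure D4:**
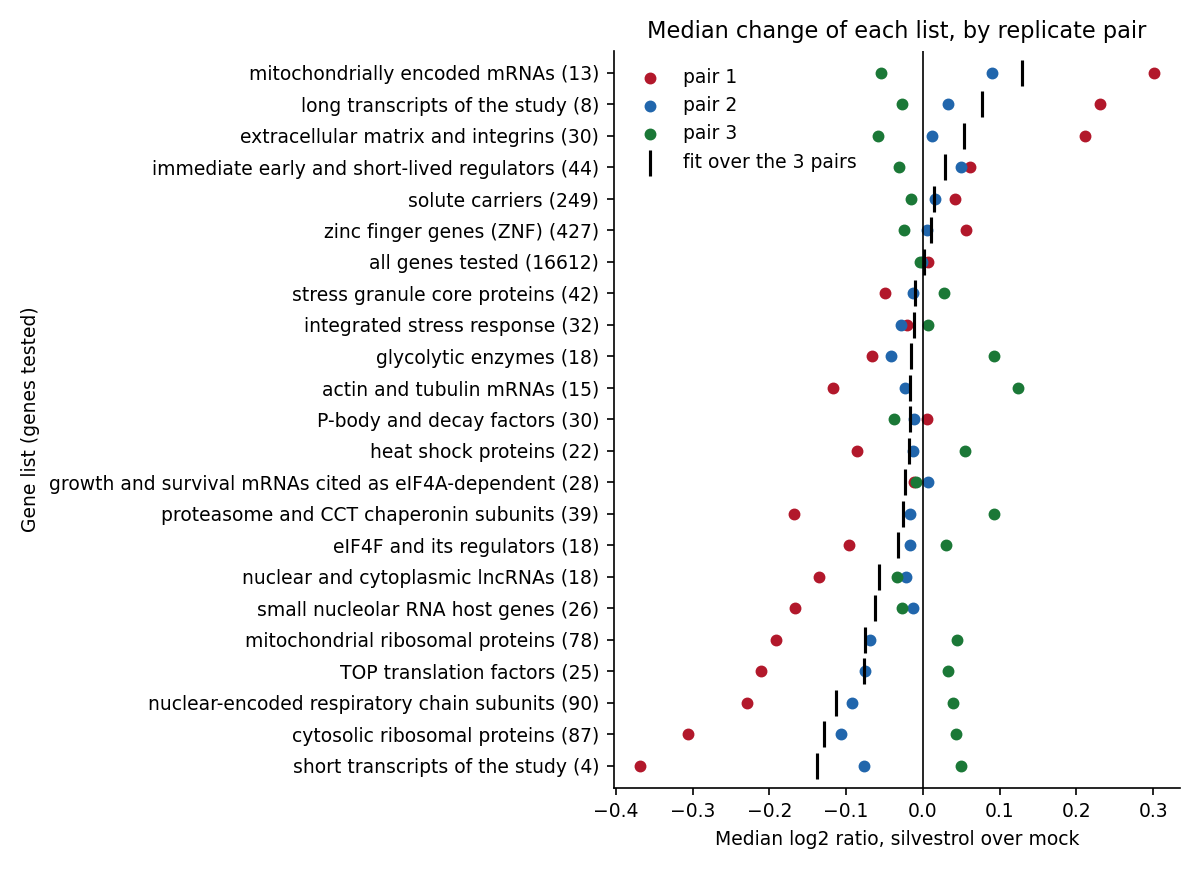
Median log2 ratio of silvestrol over mock for each gene list (number of genes tested in brackets) in pair 1 (red), pair 2 (blue) and pair 3 (green), with a black bar for the fit over the pairs. Pair 1 spreads from -0.37 to 0.30, pair 2 keeps mostly the same order over a smaller range, and pair 3 lies on the other side of 0 for most of the outer lists.

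Median shifts across all genes sorted by transcript features were small as well. Those with the pellet to input ratio and with length reversed in pair 3, whereas with GC content the outer groups kept their order. Genes were split into 5 equal groups by the log2 ratio of dsRNA pellets to input, a measure of how readily an mRNA was pelleted that uses no silvestrol or mock library. From the lowest to the highest group the median log2 fold change of silvestrol over mock ran from -0.06 to 0.06. In pair 1 it ran from -0.16 to 0.18, in pair 2 from -0.05 to 0.05 and in pair 3 from 0.04 to -0.05, so that the gradient turned round in pair 3. By exonic length the medians of the outer groups were -0.02 and 0.005, with -0.06 and 0.04 in pair 1 and 0.02 and -0.03 in pair 3. By GC content they were -0.05 and 0.06, and here the highest group exceeded the lowest in each pair, by 0.20, 0.07 and 0.04. In pair 3 the rise was not steady, with -0.046 in the lowest group, 0.023 in the next to highest and -0.003 in the highest. By average level the outer groups differed by 0.02.

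Across genes at a log2 CPM of 3 or more on average, the log2 ratios of pairs 1 and 2 had a correlation of 0.33, those of pairs 1 and 3 of -0.15 and those of pairs 2 and 3 of 0.06 (11125 genes, which share the libraries of a pair and are not independent replicates). Little of the ranking of genes within a pair was thus shared by all 3 pairs.

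**Figure D5:**
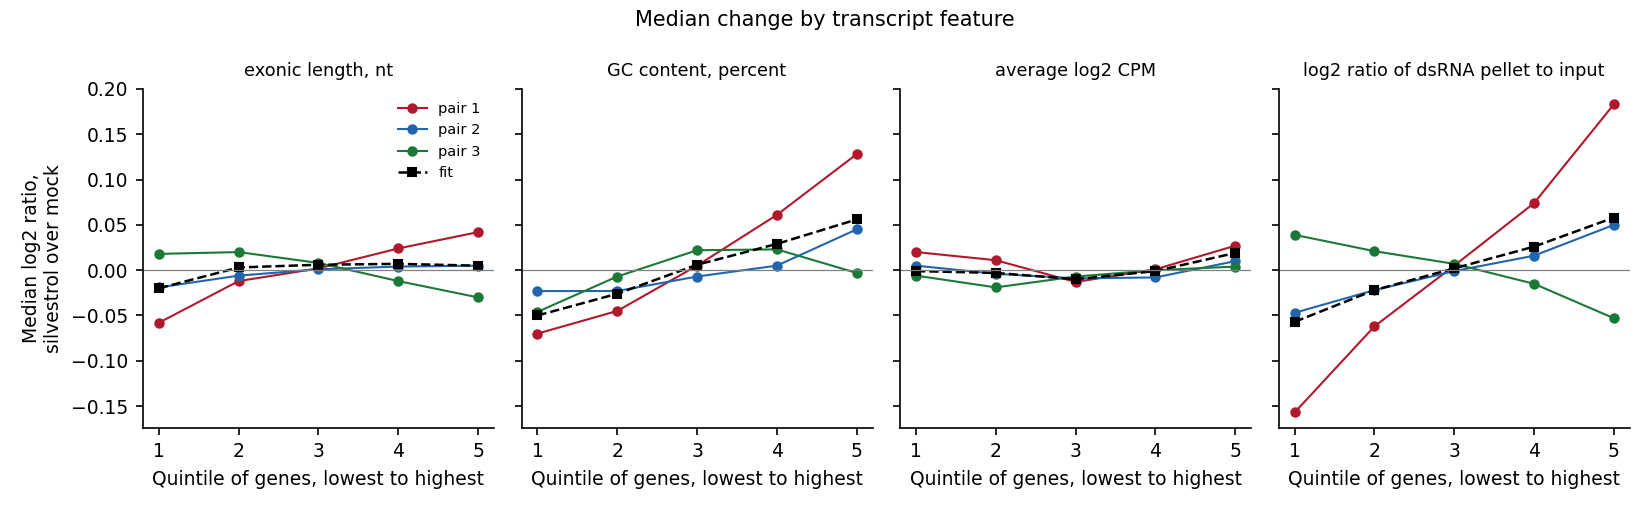
Median log2 ratio of silvestrol over mock in 5 equal groups of genes (quintiles, lowest to highest), sorted by exonic length (nt), GC content (%), average level (log2 CPM) and the log2 ratio of dsRNA pellet to input, for each pair (coloured) and the fit (black dashed). The gradient with the pellet to input ratio is steep in pair 1 (-0.16 to 0.18), shallow in pair 2 and inverted in pair 3. By GC content the highest group lies above the lowest in each pair, while average level shows no gradient.

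Genes with and without purine runs near the 5′ end had nearly equal medians. AGAGAG or GAGAGA, letters of the kind on which rocaglates are known to clamp eIF4A, was sought on the transcribed strand of the first 50 transcribed bases of the 11824 tested genes with a RefSeq start; these motifs overlap each other, and 393 genes (3.32%) held at least 1 of them. Their median log2 fold change was 0.004 against -0.001 for the other 11431 genes, and the pair medians were 0.01, 0.02 and -0.003. Of the 393, 20 were higher and 11 lower at an unadjusted p under 0.05, and of the other 11431, 373 were higher and 370 lower. The share of higher genes was thus larger with these motifs and the share of lower genes slightly smaller, which was not tested. For 2130 genes whose longest purine run was 8 bases or more, the median was 0.001. Of these, 63 were higher and 56 lower by that measure, against 330 and 325 of the other 9694 genes, so that both shares were smaller. The longest run in this window was 9 bases in IK, which 11.6% of the 11824 windows reached, and 4 bases in HES1, which 86.1% reached; it was 13 bases in TBCC, which 2.4% reached. The 663 genes that start with 5 or more pyrimidines, as RPS13 does, had a median of -0.02 and pair medians of -0.05, -0.02 and 0.02. These windows hold 1 start per gene, and starts used in U2OS cells may differ.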

How the data were processed

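Poly(A)-selected RNA of pellets and input was sequenced in 15 libraries, with 3 biological replicates per group. For every library the authors deposited the raw count of reads on each gene. The submitters' processing notes name Trimmomatic 0.36, STAR 2.5.2b, featureCounts of Subread 1.5.2 and GRCh38, and the annotation release and strand setting are not given in the sources used here. Total counts of the 6 libraries compared ranged from 32477292 to 45319526, and intervals of single genes follow from these depths and the spread between pairs.

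Genes were kept where 2 or more replicates of every group reached 10 counts. Counts were scaled by TMM and tested with edgeR 4.0.16 (glmQLFit, glmQLFTest) in R 4.3.3 with treatment and replicate number as terms, and p-values were adjusted over all 16612 genes. The study's methods use DESeq2; DESeq2 1.42.0 and limma-voom 3.58.1 were alternatives. Standard errors and 95% intervals came from the fitted model. Pair ratios are differences of log2 CPM with a prior count of 2. CPM values are TMM-scaled over the 15 libraries. The fit and its intervals were tested on simulated data. There the treatment effect was the same in every pair and the replicate effect had the same spread in every replicate. That test therefore does not cover changes that differ between pairs.

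The replicate numbers in the labels gave the pairing. Deviations from group means correlated at 0.851, 0.673 and 0.584 between same-numbered mock and silvestrol libraries, and at -0.745 to -0.651 between replicate 1 and the others. Replicates 2 and 3 were less distinct, with mock 2 and silvestrol 3 at 0.576 and mock 3 and silvestrol 2 at 0.512. Deviations within a group balance out, so a replicate 1 that stands apart in both groups gives such signs by itself. These values therefore do not decide how replicates 2 and 3 pair.

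Genes named, apart from some that are not reported here, were those called, the 10 with the smallest p in each direction at an average log2 CPM of at least 3, the highest and lowest member of 8 lists, and 10 genes set by name; RN7SL2, RN7SL3, NDUFA2, MT-ATP6, MT-ND3, AHNAK2, RPL31, EIF4E and PMPCB were added after their values had been seen. Symbols came from the tables supplied with the genome annotation (16456 of 16612 genes), starts from RefSeq (11824 genes). The comparison, its members and the gene lists were chosen with earlier results of these data known.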

Additional observations from a re-analysis of the deposited data

How the results depend on the processing

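The 2 calls, IK and HES1, were also the 2 genes called with DESeq2 and the block, library size alone, size factors of DESeq2 in edgeR, a filter on mock and silvestrol only, a GC offset, thinned libraries and, chosen after seeing the data, limma-voom; with no filter beyond 1 count there were 3. The count was 0 without the replicate block in edgeR and DESeq2, 0 in a fit over all 5 groups with the block (191 genes at an unadjusted p under 0.05, edgeR), 0 with a log2 fold change over 1 required, and 0 without the block when any 1 library was left out, also chosen after seeing the data. Leaving out 1 pair gave 1 to 170 genes: 22 without replicate 1, 1 (PMPCB, lower) without replicate 2 and 170 without replicate 3. Without replicate 1 and without replicate 3 shared 9 calls, IK and HES1 among them; without replicate 2 shared 0 with either. The cause was not tested.

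The share of genes inside 1.5-fold was 89.0%, against 68.0% without the replicate block, 77.7% with the filter on mock and silvestrol only, which adds low genes, and 83.9% to 84.5% with a pair left out. Inside 2-fold it was 98.6%, against 91.2%, 93.7%, 98.9% with limma-voom, and 95.9% to 96.5%; inside 1.2-fold (added later) 59.4%, against 8.13%, 51.6%, and 29.9% to 57.2%.

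Estimates near 0 changed sign. EIF4A2 was at 0.014 and G3BP1 at 0.0 with the GC offset; MYC was at -0.006 without the block, -0.009 with library size alone and -0.02 with the GC offset. With a pair left out the ranges were -0.033 to 0.066 for MYC, -0.145 to 0.012 for GAPDH, -0.079 to 0.168 for MT-ND4L, -0.124 to 0.001 for EIF4A1, -0.004 to 0.061 for UBAP2L, -0.126 to 0.015 for EIF4E, -0.156 to 0.017 for NDUFA2, -0.956 to 0.158 for RN7SL2 and -0.955 to 0.183 for RN7SL3. Of 189 list medians recomputed, 186 moved by less than the SD between pairs. Where a pair was left out, this count cannot show stability, because the SD came from the same pairs. With a pair left out, the median of cytosolic ribosomal proteins ranged from -0.204 to -0.029, against -0.129 in the main fit. All of these counted among the 186. Low counts limit the bound in the lowest of 5 groups of genes by level.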

Other observations

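RN7SL2, an RNA of the signal recognition particle, had pair ratios of opposite sign. It was at 21.8, 200 and 133 CPM in mock and at 53.9, 97.1 and 73.0 CPM in silvestrol replicates 1, 2 and 3. Its log2 ratios were 1.30, -1.04 and -0.87 in pairs 1, 2 and 3, and the fitted change was -0.30 with a 95% interval of -0.75 to 0.15 (edgeR, adjusted p = 0.833). Without pair 1, on 2 pairs, RN7SL2 was at -0.96 (edgeR, adjusted p = 2.62e-46). RN7SL3, a near-identical copy at a lower level, was at -0.96 (adjusted p = 0.00489). These p rest mostly on spread pooled over genes. Over all 3 pairs the SE of RN7SL2 was 0.219, against a median of 0.0718 for all genes. The 2-pair p therefore do not measure how repeatable the fall was. RN7SL2 and RN7SL3 are both non-polyadenylated RNAs in libraries selected for poly(A), and reads can be split between such copies.

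The share of counts from mitochondrially encoded genes was 0.974%, 1.23% and 1.103% in mock and 1.19%, 1.32% and 1.07% in silvestrol replicates 1, 2 and 3, against 0.369% to 0.473% in input.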
